A study of Homo sapiens with 14 samples.

Results

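The promoter sites found only in the WT As3+ KLF4 list were 3763 of the 107268 KLF4 intervals on chromosomes 1 to 22 and X in BEAS-2B cells, an established line of human bronchial epithelial cells. They were chosen by overlap and position alone. A site was an interval of the WT As3+ list on chromosomes 1 to 22 or X whose summit lay within 2 kb of the transcription start site (TSS) of any GENCODE gene and which shared no base with an interval of the other 3 KLF4 lists. They made up 12.6% of the 29866 WT As3+ intervals and 25.0% (95% interval 24.3 to 25.7) of the 15048 WT As3+ intervals at promoters. Because presence in 1 list and absence from the others chose these sites, their peak strength in the WT As3+ library and their absence elsewhere are descriptions, not findings.

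KLF4 was immunoprecipitated from 4 groups with 1 library each. These were untreated WT cells (WT control), WT cells given 1 µM As3+ for 6 h (WT As3+), untreated Nrf2 KO cells (Nrf2 KO control) and Nrf2 KO cells given 1 µM As3+ for 6 h (Nrf2 KO As3+). The KO cells were grown from CRISPR-Cas9-edited colonies with no detectable Nrf2 protein, and edited colonies that still made Nrf2 served as WT, so each genotype also stands for the colony it came from. On these chromosomes the 4 lists held 751, 29866, 76521 and 130 intervals in that order, of 760, 29956, 76768 and 140 deposited. With no replicate, a difference between libraries, colonies or preparations and a difference between conditions cannot be told apart, and no test between conditions was possible. The shares below carry exact Clopper-Pearson intervals, and differences of shares carry Newcombe intervals, both at 95%. They cover counting error only, since sites of 1 library are not replicates. Nrf2 itself was not measured by these lists, so they give no check of the knockout or of which library is which. Absence from the much longer Nrf2 KO control list decided most of the selection, so the sites rest on the label of that library.

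KLF4 is a zinc-finger transcription factor that binds GC-rich CACCC-type boxes and is known for its part in epithelial differentiation and in the reprogramming of cells to pluripotency. Nrf2 is a leucine zipper factor that is held in the cytoplasm and degraded until oxidants or metals such as arsenite release it, after which it activates antioxidant genes through antioxidant response elements. Promoters in vertebrates fall broadly into CpG-rich ones, which often belong to genes used by most cells, and CpG-poor ones, which are more often tissue-restricted.

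The strongest of these sites are shown by their sequence first. Each line holds 100 bases around the summit, from the + strand of GRCh38, and was printed where a searched word lay inside and no base fell in an annotated untranslated region. Capitals mark the searched words: the GC box GGGCGG, the ETS word CCGGAAG, the TEAD word ACATTCC, the antioxidant response element (ARE) core TGACNNNGC, the cyclic AMP response element (CRE) word TGACGTCA, the metal response element (MRE) core and the run CGCGCG, each on either strand. A capital stretch can hold 2 words that overlap. The first 7 belong to sites among the 24 strongest with a protein-coding gene at the nearest TSS, and the last 3 are the sites with the most CG dinucleotides.
PFKL, chr21:44299696-44299795 (GC box, 26 fragments): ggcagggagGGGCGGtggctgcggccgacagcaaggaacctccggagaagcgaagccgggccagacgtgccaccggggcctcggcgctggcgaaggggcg
REV1, chr2:99490292-99490391 (GC box, 24 fragments): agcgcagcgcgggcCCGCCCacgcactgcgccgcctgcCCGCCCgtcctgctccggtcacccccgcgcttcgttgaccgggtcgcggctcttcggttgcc
TWIST2, chr2:238847745-238847844 (GC box, 20 fragments): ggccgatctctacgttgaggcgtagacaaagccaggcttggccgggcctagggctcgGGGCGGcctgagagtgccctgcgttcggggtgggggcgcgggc
SCFD1, chr14:30622181-30622280 (GC box, ETS, 27 fragments): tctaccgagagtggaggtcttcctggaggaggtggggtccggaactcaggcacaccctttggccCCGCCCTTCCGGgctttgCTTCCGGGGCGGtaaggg
FIGNL1, chr7:50450096-50450195 (GC box, ARE core, 21 fragments): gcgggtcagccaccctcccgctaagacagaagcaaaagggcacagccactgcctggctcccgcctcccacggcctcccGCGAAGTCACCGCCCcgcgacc
SERINC1, chr6:122471593-122471692 (TEAD, 27 fragments): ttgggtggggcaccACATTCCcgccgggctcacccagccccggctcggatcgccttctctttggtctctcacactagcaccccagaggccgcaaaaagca
IRF2BPL, chr14:77028833-77028932 (GC box, 20 fragments): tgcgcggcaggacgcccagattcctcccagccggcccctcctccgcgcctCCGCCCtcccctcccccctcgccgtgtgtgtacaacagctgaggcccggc
JUND, chr19:18281739-18281838 (GC box, CRE, CG run, 13 fragments): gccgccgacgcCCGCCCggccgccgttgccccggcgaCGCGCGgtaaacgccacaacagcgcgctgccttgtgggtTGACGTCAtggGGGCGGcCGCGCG
ADGRL1-AS1, chr19:14136889-14136988 (GC box, MRE core, CG run, 11 fragments): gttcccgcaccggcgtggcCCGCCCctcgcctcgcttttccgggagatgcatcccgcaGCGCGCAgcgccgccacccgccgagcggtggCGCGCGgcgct
PRPF4B, chr6:4021673-4021772 (CG run, 12 fragments): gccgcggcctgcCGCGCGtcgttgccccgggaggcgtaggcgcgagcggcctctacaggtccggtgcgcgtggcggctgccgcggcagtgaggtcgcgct
A GC box was in 8 of these 10 windows, which were picked for a searched word or for their CG count. Over all 3763 sites it was in 21.8% of the central 100 bp. The 3 CpG-richest windows, picked as such, held 19 or 20 CG dinucleotides in 100 bases. JUND, which encodes an AP-1 subunit, had a CRE word close to GC boxes in the same window.

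Most of the sites were weak. The number of fragments over the summit, worked out from the listed fold and p, had a median of 10 and a range of 5 to 29, over a local background with a median of 1.35 fragments. Between 8 and 12 fragments lay over 2246 of the sites, 203 had 6 or fewer and 72 had 20 or more. The median fold over background was 4.53 and the median −log10 q was 3.38, with a range of 1.00 to 21.5. The WT As3+ promoter sites that did overlap a Nrf2 KO control interval (11245 shared promoter sites) had a median of 13 fragments, a fold of 5.12 and a −log10 q of 4.88. They were also wider, with a median of 397 bp against 252 bp, and a wider interval has more bases with which to overlap. The part of width and strength in the absence of overlap was not tested. A −log10 q of at least 5 was reached by 20.1% of the sites found only in WT As3+ and by 48.2% of the shared ones, and one of at least 10 by 1.78% and 13.2%.

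**Figure D1:**
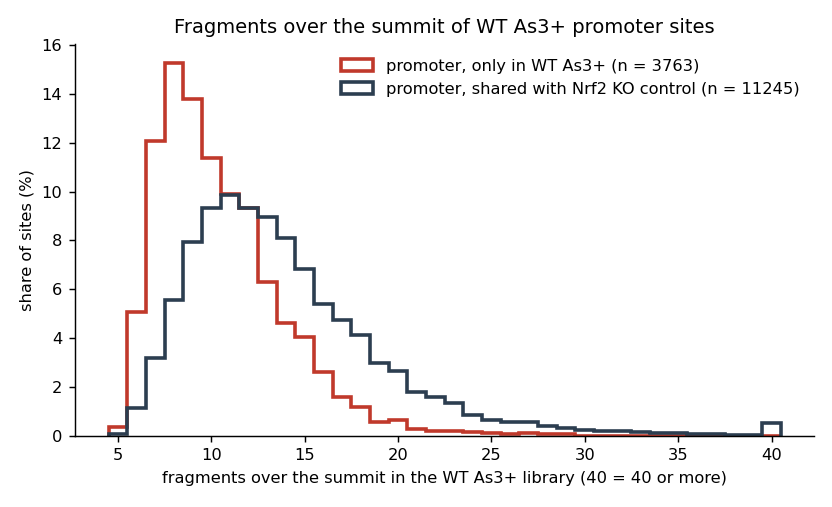
Share of WT As3+ promoter sites (y axis, percent) by the number of fragments over the summit (x axis, values of 40 or more drawn at 40), for the 3763 sites only in WT As3+ and the 11245 shared with Nrf2 KO control. The sites only in WT As3+ have a median of 10 fragments and end at 29, and the shared ones have a median of 13 and reach 108.

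The share of WT As3+ promoter sites that belonged here fell steadily as strength rose. It was 40.7% of 2248 sites with a −log10 q from 1 to 2.5, 35.6% of 4327 from 2.5 to 4, 22.3% of 3872 from 4 to 6, 14.4% of 1985 from 6 to 8 and 6.00% of 2616 at 8 or more.

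Absence from the other 3 lists came down to absence from the Nrf2 KO control list. That library differs from WT As3+ in both genotype and arsenic, so for these sites arsenic and Nrf2 loss cannot be told apart. Of the 15048 WT As3+ promoter sites, 11245 overlapped a Nrf2 KO control interval, 186 a WT control interval and 38 a Nrf2 KO As3+ interval, and only 40 were removed by the 2 short lists without the Nrf2 KO control list. A Nrf2 KO control summit held a median of 7 fragments against 10 for a WT As3+ summit, and the lowest local background was 0.491 against 0.757 fragments. The median was 25 in the WT control and 19 in the Nrf2 KO As3+ list, where no interval had fewer than 10 fragments. Of the sites found only in WT As3+, 1752 had fewer than 10.

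Many of the sites lay beside a Nrf2 KO control interval without touching it. The gap to the nearest one had a median of 657 bp, with quartiles of 212 and 4825 bp. It was at most 100 bp for 12.1% of the sites, at most 500 bp for 43.6% and at most 2 kb for 67.2% (65.7 to 68.7), which is 2530 sites. Sites away from promoters that were also found only in WT As3+ had a Nrf2 KO control interval within 2 kb in 36.9% of 9257 cases, a difference of 30.4 percentage points (28.6 to 32.1). At promoters lay 26075 of the 76521 Nrf2 KO control intervals and 15048 of the 29866 WT As3+ intervals. The part of these numbers in the difference was not tested. A WT control interval lay within 2 kb of 42 of the sites, and a Nrf2 KO As3+ interval within 2 kb of 1.

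Where a Nrf2 KO control interval lay within 2 kb, its summit was a median of 692 bp away and held a median of 9 fragments. It was closer to the TSS than the WT As3+ summit in 47.9% (45.9 to 49.9) of the 2530 cases. A separate WT As3+ interval that did overlap the Nrf2 KO control list stood within 2 kb of 1427 of these 2530 sites (56.4%), so at these promoters KLF4 intervals were listed in both libraries and the site was an additional one.

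**Figure D2:**
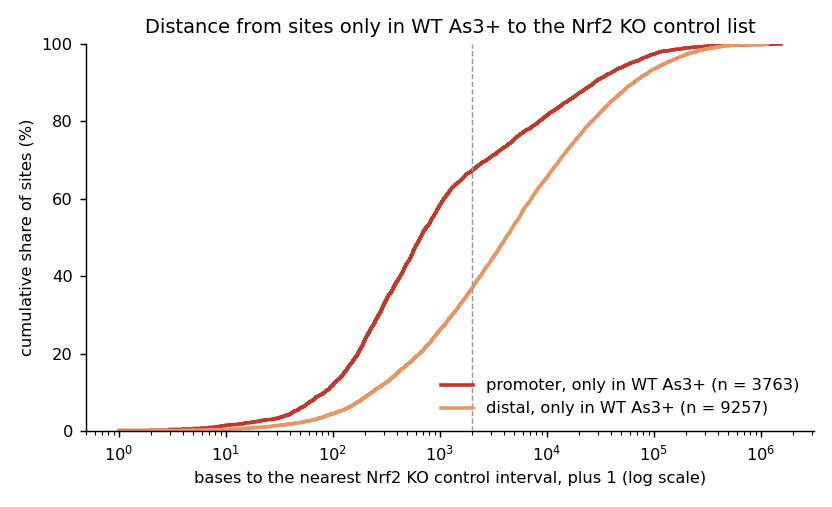
Cumulative share of sites (y axis, percent) by the number of bases to the nearest Nrf2 KO control interval plus 1 (x axis, log scale), for promoter and distal sites only in WT As3+, with a dashed line at 2 kb. At that line the promoter curve stands at 67.2% and the distal curve at 36.9%.

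The remaining 1233 sites had no Nrf2 KO control interval within 2 kb, and 697 (18.5%) had none within 10 kb. These 1233 were about as strong as the others, with a median of 9 fragments and a median −log10 q of 3.38 against 10 fragments and 3.40. A protein-coding gene was nearest to 50.7% of them against 68.1%, a difference of −17.5 percentage points (−20.8 to −14.1). The ETS word was in 6.33% against 3.20% of their windows, a difference of 3.12 (1.68 to 4.75), and the GC box in 32.1% against 37.3%, a difference of −5.20 (−8.37 to −1.95). Of the 755 sites with a −log10 q of at least 5, 241 (31.9%) had no Nrf2 KO control interval within 2 kb.

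The 24 strongest sites with a protein-coding gene at the nearest TSS had 19 to 29 fragments, a fold of 6.44 to 12.7 and a −log10 q of 11.7 to 21.5. 20 of the 24 had a CpG-rich window, 17 held a GC box, 1 a KLF word and 1 an AP-1 word. The gap to the Nrf2 KO control list was over 2 kb for 12 of them and over 10 kb for 6. Summits lay upstream of the canonical transcript at 11, in its exon 1 at 9 and in its intron 1 at 4.

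The highest −log10 q, 21.5, was at SLC10A3, a gene of the bile acid cotransporter family, at chrX:154490058-154490861 (GRCh38). The summit lay in exon 1, 164 bp from the canonical TSS, with 27 fragments over a background of 1.36, an 11.8-fold enrichment, and the nearest Nrf2 KO control interval was 3014 bp away. PFKL encodes the liver-type phosphofructokinase of glycolysis, and its site at chr21:44299464-44299944 had a summit 307 bp upstream of the canonical TSS, 26 fragments and a fold of 11.7. A Nrf2 KO control interval lay 365 bp from it, so the PFKL promoter was not free of KLF4 intervals in the KO cells. MANEAL, an endomannosidase-like gene, had the largest fold of the 24, 12.7, in exon 1 at chr1:37793833-37794155, with a Nrf2 KO control interval 154 bp away.

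SEC11A, the catalytic subunit of the signal peptidase, had 29 fragments and a fold of 9.87 at chr15:84715660-84716669, 127 bp upstream, with the nearest Nrf2 KO control interval 15999 bp away. SCFD1, which acts in vesicle fusion between endoplasmic reticulum and Golgi, had 27 fragments and a fold of 7.58 at chr14:30622052-30622440, 88 bp upstream, and no Nrf2 KO control interval for 216515 bp. Its window held GC boxes and ETS words, as shown above. FAM20C, the Golgi kinase of secreted proteins, had 21 fragments and a fold of 10.2 at chr7:191675-192461, 272 bp upstream.

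REV1 and POLI both encode polymerases that copy past damaged bases. The REV1 site at chr2:99490150-99490593 had 24 fragments and a fold of 9.84, 325 bp upstream, and lay 18060 bp from a Nrf2 KO control interval. The POLI site at chr18:54269551-54269906 also had 24 fragments, with a fold of 7.55 in intron 1, and lay 44668 bp from one. FIGNL1, an ATPase of recombination repair, had 21 fragments in intron 1, but a Nrf2 KO control interval was 127 bp away. The list of repair genes is given with the others below.

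Other strong sites with long gaps were at SERINC1, a membrane carrier protein gene, with 27 fragments and 71398 bp to the nearest Nrf2 KO control interval, and at EFL1, a GTPase of ribosome maturation, with 23 fragments and 40559 bp. TWIST2, a factor of the epithelial-mesenchymal transition (EMT), had 20 fragments and a fold of 10.3 at chr2:238847622-238847980, 290 bp upstream, with a Nrf2 KO control interval 230 bp away. CUEDC1, CSNK1G1, RHBDF2, APH1B, IRF2BPL, PIK3R3, RRAD and ELANE likewise had a Nrf2 KO control interval within 2 kb, the nearest being 2 bp from the CSNK1G1 site. PRR14L, BLOC1S4 and SEMA4F had none within 2 kb, with gaps of 3565, 8257 and 5862 bp. RRAD and ELANE, the latter encoding neutrophil elastase, were 2 of the 4 without a CpG-rich window, beside CUEDC1 and SERINC1.

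The longest gaps to the Nrf2 KO control list among sites with a −log10 q of at least 5 and a protein-coding gene at the nearest TSS were at PDGFD, a platelet-derived growth factor (602296 bp, 11 fragments), CDH13, an atypical cadherin (457149 bp, 13 fragments), ZMAT1 (313656 bp, 10 fragments) and TRIM6 (301285 bp, 15 fragments). PCDH7, a protocadherin, had 3 sites with 9 to 14 fragments whose gaps were 1273723 to 1276385 bp, while a WT control interval lay 1984 bp from the nearest of them. The stretch around PCDH7, chr4:29117376-31996226, held 7 WT As3+ intervals and no Nrf2 KO control interval. On chromosome X, 5 sites at TRMT2B, TMEM35A, CENPI and TIMM8A shared a stretch of 375746 bp with no Nrf2 KO control interval. The most sites in such a stretch, 6, were at noncoding genes in chr11:65477970-65497379, over 19410 bp.

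SLC10A3 and FAM20C each had 3 sites and no interval of another list within 2 kb of the TSS, and EGFL7, a gene of blood vessel cells, had 4 sites with gaps of 107 to 1340 bp to the Nrf2 KO control list. The EGFL7 sites lay near the most 5′ end of the gene, 2892 to 5964 bp upstream of its canonical TSS. Of 2719 protein-coding genes with a site, 289 had 2 or more and 23 had 3 or more.

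The sites lay further from the TSS than shared ones. The median distance was 519 bp against 308 bp, 49.0% (47.4 to 50.6) of the sites and 65.9% of the shared ones lay within 500 bp, and 28.1% against 13.0% lay over 1 kb away. Upstream of the TSS lay 40.1% (38.5 to 41.7) against 34.8%. Nrf2 KO control promoter sites with no WT As3+ overlap (14915 sites) had a median of 648 bp and 41.6% within 500 bp. By the canonical transcript of the nearest gene, 1827 of the summits were upstream, 753 in an exon, 995 in an intron and 188 past the end of a short gene (48.6% upstream and 26.4% in an intron, against 46.3% and 28.4% of shared sites). A gene on the other strand started within 1 kb of the nearest TSS at 21.1% of the sites and at 27.7% of shared sites, a difference of −6.62 percentage points (−8.14 to −5.05).

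A protein-coding gene was nearest to 2349 sites (62.4%, 60.9 to 64.0), a lncRNA gene to 957 (25.4%), a pseudogene to 258, a miRNA gene to 77 and a small nuclear or nucleolar RNA gene to 43. The protein-coding share was 75.8% among shared sites, a difference of −13.4 points (−15.1 to −11.7), and 58.3% among Nrf2 KO control sites without WT As3+ overlap, a difference of 4.09 (2.34 to 5.81). Read the other way, 21.6% (20.8 to 22.4) of the WT As3+ sites nearest to a protein-coding TSS belonged here, 29.4% of those nearest to a lncRNA, 36.0% to a miRNA, 56.6% (51.9 to 61.2) to a pseudogene and 63.2% (50.7 to 74.6) to a small nuclear or nucleolar RNA, beside 25.0% over all. Pseudogenes and small RNA genes have near-identical copies, and how reads with several matches were treated is not given in the sources used here, so their placement is uncertain.

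CpG-rich windows were less frequent than at shared sites. A window of 200 bp around the summit was called CpG-rich with a GC content of at least 50% and an observed to expected CpG ratio of at least 0.6. It was CpG-rich at 49.7% (48.1 to 51.4) of the sites, 79.0% of shared sites, 42.6% of Nrf2 KO control sites without WT As3+ overlap and 10.4% of distal sites only in WT As3+. At the TSS of all protein-coding genes the share was 59.3%, and at the TSS of all genes, the set that the rule used, it was 29.5%. The difference from shared sites was −29.2 points (−31.0 to −27.5), and that from the Nrf2 KO control sites was 7.13 (5.34 to 8.91). Median GC content was 63.0% at the sites, 70.0% at shared sites and 62.5% at the Nrf2 KO control sites.

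The gap in CpG-rich windows between these and shared sites stood in every range of strength, as the plot of CpG-rich windows by strength shows. It was 40.6% against 67.3% at a −log10 q from 1 to 2.5, a difference of −26.7 points (−30.7 to −22.6), and 70.7% against 87.2% at 8 or more, a difference of −16.5 (−24.2 to −9.84). Among the sites themselves, 65.3% with a −log10 q of at least 5 were CpG-rich against 45.8% of the weaker ones, a difference of 19.5 (15.6 to 23.2). A protein-coding gene was nearest to 73.9% of the CpG-rich sites and to 51.0% of the others.

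**Figure D3:**
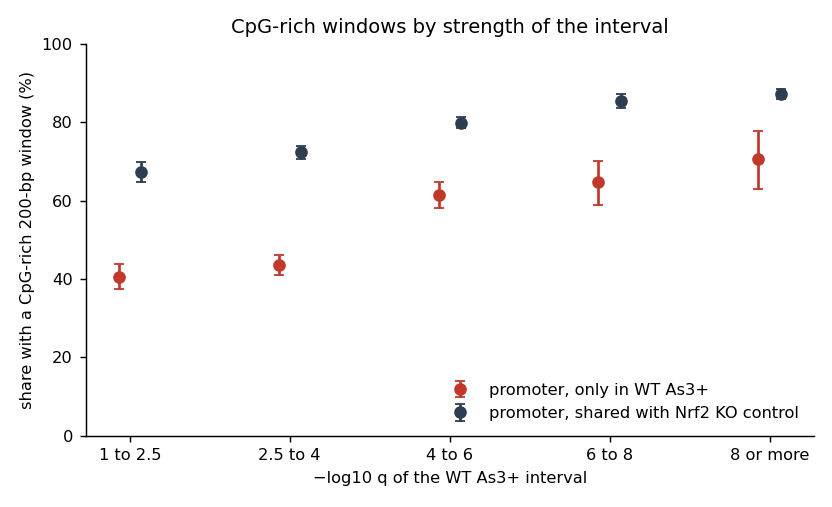
Share of promoter sites with a CpG-rich 200-bp window (y axis, percent) in 5 ranges of −log10 q of the WT As3+ interval (x axis), for sites only in WT As3+ and sites shared with Nrf2 KO control, with exact 95% intervals that cover counting error only. The sites only in WT As3+ are lower in each range, 40.6% against 67.3% in the weakest and 70.7% against 87.2% in the strongest.

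Words bound by KLF4 and related factors were searched in the same 200-bp windows, on both strands. A KLF word (CCACACCC or CCACGCCC) was in 9.43% (8.52 to 10.4) of the windows, against 8.76% at shared sites, 8.43% at Nrf2 KO control sites without WT As3+ overlap, 11.3% at distal sites only in WT As3+ and 6.24% at protein-coding TSS. The difference from shared sites was 0.675 points (−0.367 to 1.77) and that from the Nrf2 KO control sites 1.01 (0.00324 to 2.07). By strength, the difference from shared sites was 2.98 (1.18 to 4.88) at a −log10 q from 2.5 to 4, with intervals that included 0 in the other ranges. It was 1.37 from 1 to 2.5, 1.43 from 4 to 6 and −1.63 from 6 to 8. At 8 or more it was −4.63 (−8.12 to 0.759), with 7.64% of the sites against 12.3% of shared ones. KLF words were more frequent at the summit than beside it. They were in 4.94% of the central 100 bp and in 3.07% of windows of the same length centred 250 bp away, a difference of 1.87 points (1.10 to 2.70) and a ratio of 1.61, and the ratio was 1.64 at shared sites and 1.61 at the Nrf2 KO control sites. The GC box, bound by SP factors and also by KLF factors, was in 35.6% of the windows, 59.8% at shared sites, 32.1% at the Nrf2 KO control sites and 46.9% at protein-coding TSS. At the TSS of all genes the GC box was in 23.4% of windows. In the central 100 bp it was in 21.8% against 16.9% in the flanks, a difference of 4.90 (3.35 to 6.48).

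For the words of 4 stress-responsive factors, the interval of the difference from shared sites included 0 within CpG-rich windows and within the others. The AP-1 word TGACTCA was in 3.08% (2.55 to 3.69) of the windows, with 2.61% at protein-coding TSS and 3.14% at the TSS of all genes. At shared sites it was in 2.05%, a difference of 1.03 points (0.450 to 1.68). Within CpG-rich windows it was 1.71% against 1.41%, a difference of 0.302 (−0.261 to 1.03), and within the other windows 4.44% against 4.49%, a difference of −0.0437 (−1.28 to 1.23). By strength, without that split, the difference was 1.26 (0.401 to 2.26) at a −log10 q from 2.5 to 4, 1.60 (0.435 to 3.11) from 4 to 6 and 2.83 (0.822 to 5.95) from 6 to 8, while the intervals below and above these ranges included 0. Against the Nrf2 KO control sites without WT As3+ overlap (2.06%) the AP-1 difference was 1.02 (0.464 to 1.66), not split by CpG content. The AP-1 word was no more frequent in the central 100 bp (1.33%) than in the flanks (1.38%). The ARE core was in 8.64% against 9.21% at shared sites, a difference of −0.576 (−1.59 to 0.499), and in 10.1% of windows at protein-coding TSS. The MRE core (TGCACNC or TGCGCNC), bound by the metal-responsive factor MTF1, was in 29.2% against 30.2%, a difference of −1.08 (−2.75 to 0.613), with 25.5% at protein-coding TSS. The heat shock element pair GAANNTTC was in 2.82% against 2.15%, a difference of 0.665 (0.104 to 1.30), which was 0.639 within CpG-rich windows and 0.0625 within the others. That word was in 3.56% of windows at protein-coding TSS. At the TSS of all genes it was in 4.92%, the ARE core in 8.93% and the MRE core in 18.6%. For the ARE core and the heat shock word, the interval of the difference between the central 100 bp and the flanks included 0.

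The TATA box word TATAAA was in 94 of the 3763 windows against 1.05% at shared sites, a difference of 1.45 points (0.952 to 2.02), and stayed higher within CpG-rich windows (1.55% against 0.946%) and within the others (3.44% against 1.44%). CCAAT was in 526 windows against 11.4%, a difference of 2.60 (1.38 to 3.88), but within CpG-rich windows the difference was 1.45 (−0.0962 to 3.13) with an interval that includes 0 within the others as well. Both were less frequent than at protein-coding TSS, where TATAAA was in 7.08% and CCAAT in 25.9% of windows, and both were rarer at the summit than in the flanks. The ETS word was in 4.23% against 6.69%, with 10.2% at protein-coding TSS, and its difference was −1.16 (−2.33 to 0.158) within CpG-rich windows and −1.32 (−2.30 to −0.330) within the others. The CG run CGCGCG was in 10.4% against 19.5%, with 16.6% at protein-coding TSS and 7.38% at the TSS of all genes. The GC box stayed lower than at shared sites within CpG-rich windows (52.1% against 66.1%) and within the others (19.3% against 36.2%). The NRF1 word GCGCATGCG (0.505%), the CRE word (0.585%), the TEAD word (1.73%) and the E-box CACGTG (4.38%) were the others searched. Among these 4, the interval of the difference from shared sites leaves out 0 for the TEAD word alone, at 0.482 (0.0510 to 0.987), and includes it within CpG-rich windows, at −0.0292 (−0.449 to 0.554), and within the others, at 0.285 (−0.625 to 1.24). At protein-coding TSS these 4 were in 1.88%, 1.87%, 1.66% and 5.87% of windows, and at the TSS of all genes in 0.894%, 0.868%, 2.36% and 3.97%.

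**Figure D4:**
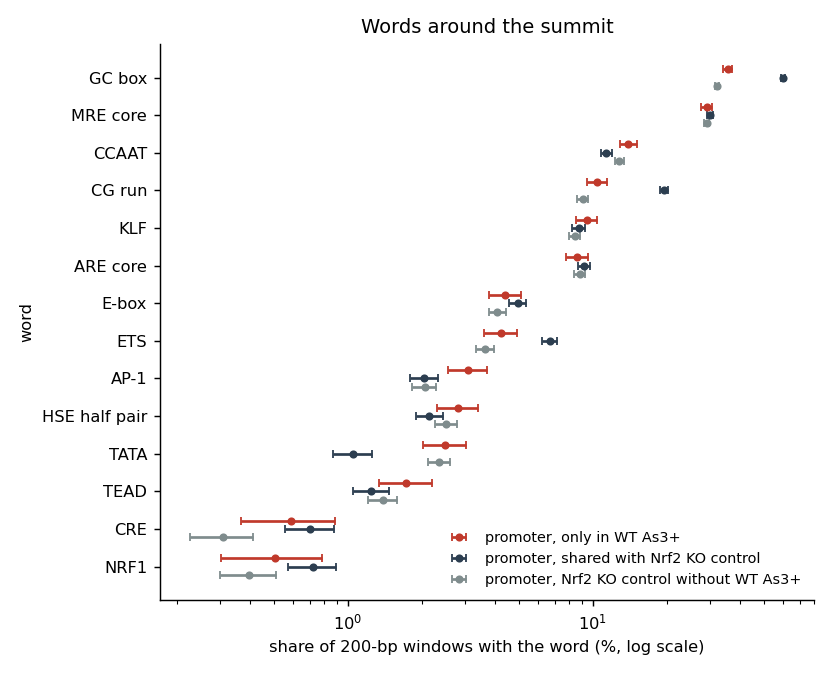
Share of 200-bp windows around the summit that hold each word (x axis, percent, log scale; y axis, word) at sites only in WT As3+, shared promoter sites and Nrf2 KO control promoter sites without WT As3+ overlap, with exact 95% intervals that cover counting error only. The GC box (35.6% against 59.8%), the ETS word and the CG run are lower and TATA higher at the sites only in WT As3+ than at shared sites, while KLF words are at 9.43% and 8.76%.

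The share of WT As3+ promoter sites that belonged here varied along the genome. It was lowest on chromosome 20, with 64 of 479 (13.4%, 10.4 to 16.7), and highest on chromosome X, with 111 of 303 (36.6%, 31.2 to 42.3). Nrf2 KO control promoter sites numbered 1076 on chromosome 20 and 505 on chromosome X. In 259 bins of 5 Mb with at least 20 WT As3+ promoter sites the share had a median of 23.5%, quartiles of 17.9% and 31.0% and a range of 0% to 62.1%. The highest was 18 of 29 at 25 to 30 Mb of chromosome 7, which holds the HOXA cluster, where 31 Nrf2 KO control promoter sites were listed. Over these bins Nrf2 KO control promoter sites per WT As3+ promoter site had a median of 1.65, against 1.07 in that bin. At 40 to 45 Mb of chromosome 7 it was 19 of 37, with 0.784 Nrf2 KO control promoter sites per WT As3+ one. At 30 to 35 Mb of chromosome 3 it was 0 of 20, which allows a share of up to 16.8%.

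By gene, 2719 of 19970 protein-coding genes (13.6%) had such a site within 2 kb of their TSS, which is 26.9% of the 10103 with any WT As3+ promoter site. A Nrf2 KO control interval also touched the 4-kb window around the TSS in 2022 (74.4%, 72.7 to 76.0) of these 2719 genes. In 697 no interval of the other 3 lists did, which is 3.49% of all protein-coding genes. Both shares serve below as the background for the gene lists, which are described by counts without a test. A list's shares also follow how many of its genes have a WT As3+ site at all.

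The share of Nrf2 target genes with such a site was below 13.6%, with an interval that includes it. Of 45 Nrf2 target genes, 5 (11.1%, 3.71 to 24.1) had a site, while 29 had some WT As3+ promoter site. The 5 were 17.2% of these 29, beside 26.9% over all genes. MGST1, a microsomal glutathione transferase, had 15 fragments in intron 1, 17776 bp from a Nrf2 KO control interval, and CES1, a carboxylesterase, had 9 fragments and 5811 bp. At TXNRD1, thioredoxin reductase, and TALDO1, of the pentose phosphate pathway, Nrf2 KO control intervals were 39 and 283 bp away. The TXNRD1 window held an ARE core. Among 23 regulators and partners of Nrf2, 6 had a site, among them NFE2L1, a paralogue of Nrf2 (18 fragments, gap 444 bp), AMER1 (10 fragments, gap 703501 bp), BACH2, a repressor at the same elements, and the coactivator gene CREBBP. For arsenic handling 1 of 20 genes had a site, the methyltransferase gene N6AMT1 with 8 fragments and an AP-1 word. Of 21 metallothionein and metal response genes 2 had one, the metal carrier genes SLC39A14 and SLC30A5.

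The shares of heat shock and unfolded protein response genes were above 13.6%, with intervals that include it. Of 40 heat shock response genes, 10 (25.0%, 12.7 to 41.2) had a site, of which DNAJA2 (16 fragments) and DNAJB4 (17 fragments) had no interval of another list within 2 kb. The DNAJB4 summit lay 324 bp from the most 5′ end of the gene but 25440 bp upstream of its canonical TSS. HSPH1 had 14 fragments with a Nrf2 KO control interval 138 bp away, and HSPB7 had 11 with one 986 bp away. Of 38 genes of the integrated stress and unfolded protein response, 9 (23.7%, 11.4 to 40.2) had one. HERPUD1, of endoplasmic reticulum degradation, had 21 fragments 275 bp upstream and SEL1L, of the same process, had 12 in exon 1 and 83081 bp to the nearest Nrf2 KO control interval. DDIT3, a stress-induced factor, had 3 sites, the strongest with 12 fragments, 2370 bp upstream of its canonical TSS. DNAJC3 had 13 fragments with a gap of 13 bp. Proteasome subunits had 5 of 39 (12.8%, 4.30 to 27.4), of which PSMB1, PSMC4, PSMD8 and PSMD6 had no interval of another list within 2 kb.

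Several sites at ribosomal protein genes had no interval of another list nearby. Of 87 cytosolic ribosomal protein genes, 16 (18.4%, 10.9 to 28.1) had a site and 9 (10.3%) had it with no interval of the other lists within 2 kb, beside 3.49% over all genes. RPL13A (14 fragments, gap 7384 bp) and RPS6 (14 fragments, gap 3030 bp) were among these, while RPS10 (14 fragments, gap 41 bp) and RPL13 (12 fragments, gap 169 bp) were not. Of 78 mitochondrial ribosomal protein genes, 19 (24.4%, 15.3 to 35.4) had a site, 8 (10.3%) with no other interval, led by MRPL27 with 24 fragments, 7793 bp from a Nrf2 KO control interval, and MRPS23 with 17 fragments and 10706 bp. MRPS18B had 25 fragments and a gap of 1396 bp. Complex I subunits of the respiratory chain had 7 of 38, 1 of them without other intervals.

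The shares of EMT and Notch genes with a site were above 13.6%, with intervals that leave it out. Intervals also leave it out for HOX genes, mitochondrial ribosomal protein genes and chromatin-modifying enzymes (23.4%, 14.5 to 34.4). These intervals are not adjusted for the number of lists. Among genes with any WT As3+ promoter site, 46.2% of 26 EMT genes and 36.7% of 30 Notch genes had such a site, beside 26.9% over all genes. It was 61.1% of 18 HOX genes, 40.4% of 47 mitochondrial ribosomal protein genes and 31.0% of 58 chromatin-modifying enzymes. For the shares among genes with a WT As3+ site no intervals were worked out. Of 39 EMT genes, 12 (30.8%, 17.0 to 47.6) had a site, led by TWIST2 as above, SNAI2 (20 fragments), TWIST1 (12 fragments, gap 8719 bp) and FN1, fibronectin (13 fragments, gap 533 bp). In the Notch pathway 11 of 37 (29.7%, 15.9 to 47.0) had one, among them RFNG, a Notch-modifying glycosyltransferase, DTX1 with 3 sites, MAML1, a coactivator, and the receptor gene NOTCH1, at which the site was 1 of 6 WT As3+ sites. In the WNT pathway it was 13 of 59, with DVL3 (16 fragments), DVL1, WNT1 and WNT10A. In the TGF-beta and SMAD pathway it was 9 of 47, with SKIL (16 fragments, fold 7.24), SMAD3 (17 fragments, gap 41998 bp), SMAD7 and INHBA, and in the Hedgehog pathway 4 of 22, GAS1, BOC, CDON and GLI1. No interval of another list lay within 2 kb at 3 of the 12 EMT genes, 1 of the 11 Notch genes, 2 of the 13 WNT genes, 2 of the 9 TGF-beta and SMAD genes and 0 of the 4 Hedgehog genes, beside 25.6% of all protein-coding genes with a site.

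HOX genes, which set position along the body axis, had the largest share of WT As3+ genes that carried such a site among the lists with at least 10 of them. Sites were at 11 of 39 HOX genes (28.2%, 15.0 to 44.9), which is 61.1% of the 18 with any WT As3+ promoter site beside 26.9% over all genes. In the HOXA cluster, chr7:27090993-27202091, 7 of the 9 WT As3+ promoter sites belonged here, with 6 to 11 fragments, and 16 Nrf2 KO control intervals were listed in the same cluster. HOXA10 (11 fragments) and HOXA13 (2 sites) had no interval of another list within 2 kb. In the HOXB, HOXC and HOXD clusters it was 3 of 8, 4 of 8 and 1 of 1, with 35, 35 and 16 Nrf2 KO control intervals. The sites of these clusters were weak, with at most 14 fragments.

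Of the lists, inflammatory genes had the highest share with a site and no other interval. It was little above the 10.3% of cytosolic ribosomal protein, mitochondrial ribosomal protein and proteasome genes. Of 63 genes of NF-kB and cytokine signalling, 14 (22.2%, 12.7 to 34.5) had a site and 7 (11.1%) had no interval of the other lists within 2 kb. TNFRSF1A, a receptor of tumour necrosis factor, had 16 fragments and a gap of 4264 bp, and LIF, a cytokine that keeps mouse stem cells undifferentiated, had 16 and 2371 bp. CXCL1, IL6, IRF9 and NFKBIB were also among the 7, and IRF3 had 16 fragments beside a Nrf2 KO control interval 896 bp away. DNA repair genes had a site in 7 of 59 (11.9%) and without other intervals in 5 (8.47%), with MLH3 (15 fragments, gap 12219 bp), ERCC5 (16 fragments, gap 45433 bp) and MRE11 (11 fragments, gap 18060 bp) among them. Immune checkpoint genes had 1 of 38, PDCD1, with 7 fragments.

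Of the remaining lists fixed by function, sites were at 5 of 27 KLF and SP family genes (KLF9, KLF1, SP5 and KLF16 the strongest), 3 of 21 AP-1 factors (JUND, FOSL2 and FOSB), 4 of 27 stem cell factors, 11 of 58 cell cycle and p53 genes, 13 of 60 receptor tyrosine kinases and ligands, 18 of 77 chromatin-modifying enzymes, 7 of 47 hypoxia and glycolysis genes and 9 of 36 airway epithelial factors. BBC3, a p53-induced death gene, had 15 fragments and a gap of 2264 bp. KDM5B, a histone demethylase, had 18 fragments beside a Nrf2 KO control interval 51 bp away. SPDEF, YAP1, GATA6 and IRX3 were the strongest airway factors, with 11 or 12 fragments each, and none of the 9 was free of other intervals.

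Gene families named by symbol gave 82 of 508 ZNF genes (16.1%, 13.0 to 19.6), of which 35 (6.89%) had no other interval, led by the divergent pair ZNF449 and ZNF75D, which shared a site of 16 fragments 93213 bp from a Nrf2 KO control interval. SLC transporters had 36 of 348, transmembrane proteins 39 of 237, coiled-coil domain genes 18 of 138, tripartite motif genes 12 of 73, potassium channels 8 of 95, FOX genes 8 of 51, collagens 7 of 44 and SOX genes 2 of 19. Few members of some families had any WT As3+ promoter site, which limits these counts. Sites were at 2 of 415 olfactory receptors (2 with any WT As3+ promoter site), 1 of 94 keratin-associated proteins (3 with any), 2 of 55 keratins (5 with any), 3 of 53 clustered protocadherins (4 with any) and 5 of 76 replication histones (11 with any). Of 4700 miRNA, snRNA and snoRNA genes, 162 (3.45%) had a site within 2 kb. These were 30 of 1884 snRNA genes, 33 of 939 snoRNA genes, 98 of 1850 miRNA genes with a MIR symbol and 1 of the miRNA genes annotated without one.

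**Figure D5:**
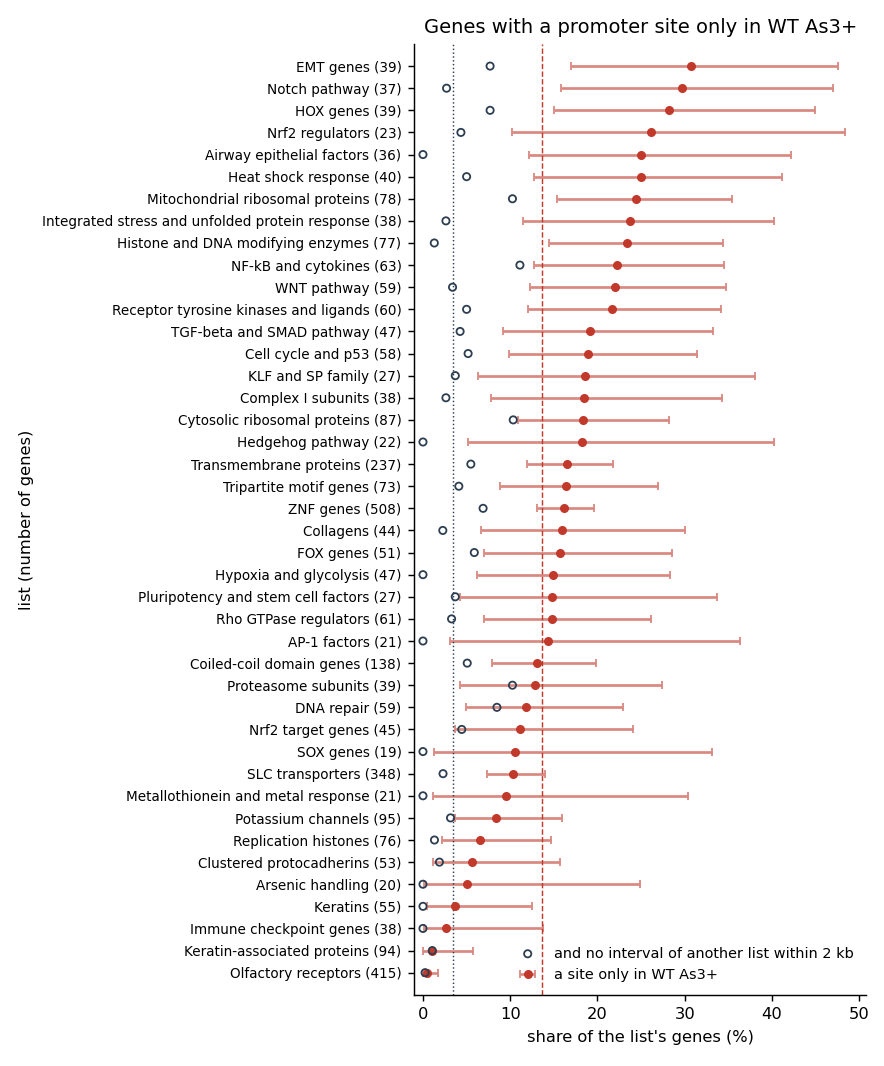
Share of each list's protein-coding genes (x axis, percent; y axis, list with its number of genes) with a promoter site only in WT As3+ (filled, exact 95% interval of counting error) and with no interval of another list within 2 kb as well (open). The dashed line marks 13.6% and the dotted line 3.49% of all protein-coding genes; EMT genes stand highest at 30.8%, and NF-kB and cytokine genes have the highest open circle at 11.1%.

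The limits of the rule passed through a continuous range of sites. The SYS1 site lay at −2000 bp from its TSS with 13 fragments, just inside, and the ATOSB site at 2002 bp with 11 fragments, just outside. The SAMD11 and METTL3 sites abutted a Nrf2 KO control interval with 0 bp between them, with 9 and 11 fragments, while the TMEM80 and MAP4K5 sites overlapped one by 1 bp, with 11 and 12. Within 10 bp of another list's interval lay 62 of the sites, and 79 of the promoter sites outside the group overlapped one by 10 bp or less.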

How the data were processed

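The authors mapped 75-nt reads with BWA, to GRCh38/hg38 per the labels, and deposited 1 peak list for each KLF4 library. The peak caller and its settings are not given in the sources used here. The paper describes tag (read) numbers evened out between samples by drawing at random down to the smallest one. Whether the peak lists were made after that step is not given. Per the file headers and values, each deposited interval has a fold over background (a ratio), a −log10 p, a −log10 q and a score that is 10 times the −log10 q rounded down. Libraries for input DNA, H3K27Ac and H3K4me1 were not used here. Read totals were not used, so depth is known only as fragments over a summit, recovered from fold = (n + 1)/(λ + 1) and the Poisson tail, with n the fragments and λ the background. No interval ran past a chromosome end of the reference. Genes, TSS (1 per gene, its most 5′ end) and canonical transcripts were those of GENCODE 44, and words were counted in the GRCh38 sequence with pysam. Steps were run in Python with numpy, pandas and scipy and tested on simulated data, where 100% of planted overlaps, words and fragment numbers were recovered. The simulated fold and p were made with the same relation, so their recovery cannot show that the deposited columns follow it. In the lists, the recovered numbers matched the deposited −log10 p to within 0.000405.

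Sites, gene lists and words were chosen with earlier results of these data known. Named genes are those nearest to the 24 strongest sites with a protein-coding nearest TSS, up to 4 of each list by −log10 q, those with the most sites and those at the limits of the rule. Others were named after their values were seen: those with the longest gaps to the Nrf2 KO control list and the list genes with no other interval nearby. Some genes that meet these rules are not reported here. Alternatives were a −log10 q of at least 5, a 1-kb TSS window, other sets of TSS, stricter and looser overlap, and other word windows.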

Additional observations from a re-analysis of the deposited data

How the results depend on the processing

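The lists have 1 library per condition and a site of 10 fragments is near the threshold, so absence from a list is not absence of KLF4. No paired analysis was possible because no condition has a replicate. Of 56 values under alternatives, 20 stayed within the 95% interval of the reported value (for the number of sites, within 1.5 times) and 36 moved. The KLF word share was within its interval in 4 of 6 alternatives to the choice of sites.

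The number of sites was 755 at a −log10 q of at least 5, 1561 with no other interval within 1 kb and 6166 when overlap needed 50% of the interval. The share of WT As3+ promoter sites was 12.2% at a −log10 q of at least 5, 21.6% with a 1-kb TSS window, 21.4% with protein-coding TSS, 28.3% with the TSS of every transcript, 10.4% with no other interval within 1 kb and 41.0% with 50% overlap. In that order the protein-coding share was 67.2%, 64.9%, 100% by construction, 73.7%, 51.9% and 67.2%, and the CpG-rich share was 65.3%, 58.3%, 58.8%, 42.2%, 44.0% and 58.1%. The share with a Nrf2 KO control interval within 2 kb was 74.1% with protein-coding TSS, 21.2% with no other interval within 1 kb, which removes near ones by construction, and 79.9% with 50% overlap. The median number of fragments was 14 at a −log10 q of at least 5, 9 with the TSS of every transcript, 9 with no other interval within 1 kb and 11 with 50% overlap. The KLF word share was 8.48% at a −log10 q of at least 5, 8.06% with a 1-kb TSS window, 4.94% in 100-bp and 15.9% in 400-bp windows, and 35.6% for the GC box in its place. The AP-1 word share was 4.11% at a −log10 q of at least 5, 1.33% in 100-bp and 5.85% in 400-bp windows. The cause of these changes was not tested, apart from windows of another length holding fewer or more bases.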
